A study of Saccharomyces cerevisiae with 12 samples.

Results

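Budding yeast (Saccharomyces cerevisiae) with a temperature-sensitive allele of RPN5, the gene of a proteasome lid subunit, was compared with wild type over replicates 2 to 4 of rpn5-ts and replicates 1 to 4 of WT, 7 of the 12 libraries of the series. The members were chosen by name and by counts of a pair of marker genes. The library labelled rpn5-ts replicate 1 was left out because it held 6869 counts of LYS2 and 8056 of MET17, genes that its genotype lists as deleted. The 3 libraries kept held at most 4 counts of LYS2 and 2 of MET17. These values chose the libraries and are given as a description, with no test. The WT strain, BY4741 by the names of replicates 3 and 4, is a MATa strain of genotype his3Δ1, leu2Δ0, met15Δ0 and ura3Δ0 (MET15 is another name of MET17). The rpn5-ts strain is given the same 4 alleles and in addition lys2Δ0, can1Δ::LEU2-MFA1pr::His3 and rpn5-ts::URA3. It therefore differs from WT in its markers as well as in RPN5. All cultures grew in YPD, a rich glucose medium, to an optical density of about 0.5 with no treatment. The labels used here give no growth temperature and do not say whether a group is more than 1 clone. The pup2-ts strain, which carries an allele of a core particle subunit, serves below only to show where rpn5-ts differs from another proteasome mutant. The other alleles of pup2-ts are not listed here, and its marker levels are given with that comparison.

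The proteasome degrades proteins that carry chains of ubiquitin. Its core particle is a stack of alpha and beta rings with the protease sites inside. Its regulatory particle has a base, whose ATPases unfold the substrate and open the core, and a lid, which holds the deubiquitinase Rpn11 and scaffold subunits such as Rpn5. The transcription factor Rpn4 activates proteasome genes through a promoter motif and is itself a short-lived substrate of the proteasome, so that cells with less proteasome activity accumulate Rpn4 and make more proteasome RNA. Rpn5 also belongs to the yeast COP9 signalosome, a complex that removes the ubiquitin-like protein Rub1 from cullins.

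Libraries of polyadenylated RNA held, in units of 1e6 counts over protein-coding genes, 23.9 to 60.6 in WT and 18.5 to 22.7 in rpn5-ts. Levels are CPM, counts scaled to a common library size with TMM factors, differences are log2 fold changes of rpn5-ts over WT with their standard error (SE), and a gene was called when its Benjamini-Hochberg adjusted p in edgeR's quasi-likelihood test was under 0.05. The series describes the samples as biological replicates, and the p-values measure the spread between these libraries. Replicates 3 and 4 have the word DNAse in their names in every group and replicates 1 and 2 do not, although the labels state DNAse treatment for all. This form of the name was a factor in the fit, and it moved 2824 of 5560 genes (50.8%) within the 7 libraries. The glycolysis list moved most, with 15 of 16 genes called higher in the DNAse form and a median log2 difference of 1.55. WT replicate 1 stood apart from the other WT libraries in heat shock genes. The plain form holds a single rpn5-ts library, replicate 2, so effects within that form rest on it.

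The strain markers followed the labels in the 3 rpn5-ts libraries. URA3, the selection marker beside the ts allele, had 3.78, 4.72, 4.38 and 3.68 CPM in WT and 102, 126 and 118 in rpn5-ts. The arginine permease gene CAN1, replaced by the reporter cassette, had 178 to 227 CPM in WT and 13.3 to 16.9 in rpn5-ts. HIS3 was less clear, with levels of 37 to 78.6 CPM in WT that overlapped the 68.3 to 107 of rpn5-ts. The cells also carried a-cell transcripts: STE2, the alpha-factor receptor, was at 421 to 701 CPM in WT and 241 to 261 in rpn5-ts. Alpha-cell transcripts were low in both groups, and their sum over STE3, MF(ALPHA)1, MF(ALPHA)2 and SAG1 was 44.2 to 62 CPM in WT and 56 to 57 in rpn5-ts. The sum over 11 meiosis genes was 99.9 to 160 CPM in WT and 109 to 117 in rpn5-ts.

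Of 5560 genes tested, 2435 (43.8%) were called, 1234 (22.2%) higher and 1201 (21.6%) lower in rpn5-ts. Most of these differences were small. Against a fold of 1.5, 304 genes passed (5.47%), 200 (3.6%) above and 104 (1.87%) below WT. Levels of all 3 rpn5-ts libraries lay outside the range of the 4 WT libraries for 1691 genes (30.4%), 918 (16.5%) above and 773 (13.9%) below. Since calls were this common, the share of calls in each gene list is read against these percentages. The median log2 difference over all genes was -0.02. The count of calls was 765 without the form factor, and was 1548 without WT replicate 4 and 1548 without rpn5-ts replicate 3. The count beyond 1.5-fold was 481 without WT replicate 1, 198 without rpn5-ts replicate 3 and 195 with the library labelled rpn5-ts replicate 1. Counts in gene lists depended on the libraries as well, and of 50 lists 38 moved by over 1.5 times without the form factor, 18 without WT replicate 4 and 18 without rpn5-ts replicate 3. The lists of proteasome subunits, their assembly factors, the ubiquitin pathway, copper and zinc, leucine synthesis and phosphate stayed within 1.5 times under every alternative run.

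All 33 genes of proteasome subunits rose in rpn5-ts, and 30 of them did so beyond 1.5-fold. Their median log2 difference was 0.97, with a range from 0.43 to 1.33. In 32 of the 33 the 3 rpn5-ts libraries lay above all 4 WT libraries, and the exception was RPN5 itself. The medians were 0.99 in replicates 3 and 4 and 1.01 in replicates 1 and 2, so the rise was of like size in both forms. Promoters of subunit genes are shown because 27 of the 33 hold the Rpn4 motif. Windows ran from 250 bases before to 50 bases after the first base of the start codon in the R64 annotation (sacCer3), and both strands were searched. The motif GGTGGCAAA was present in 71 of 5560 windows (1.28%), in 6 of 7 alpha ring, 6 of 7 beta ring, 8 of 10 base and 7 of 9 lid genes. Capitals mark the motif, which lies on the other strand in RPT1. The sequences are read 5′ to 3′ along the gene's strand.
RPN5, chrIV:190674-190973, plus strand: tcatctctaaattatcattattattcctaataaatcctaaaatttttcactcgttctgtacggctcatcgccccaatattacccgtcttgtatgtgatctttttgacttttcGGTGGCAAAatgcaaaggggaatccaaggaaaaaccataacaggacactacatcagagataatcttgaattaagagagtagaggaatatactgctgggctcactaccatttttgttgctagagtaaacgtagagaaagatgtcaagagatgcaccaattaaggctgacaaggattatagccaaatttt
PRE1, chrV:177585-177884, plus strand: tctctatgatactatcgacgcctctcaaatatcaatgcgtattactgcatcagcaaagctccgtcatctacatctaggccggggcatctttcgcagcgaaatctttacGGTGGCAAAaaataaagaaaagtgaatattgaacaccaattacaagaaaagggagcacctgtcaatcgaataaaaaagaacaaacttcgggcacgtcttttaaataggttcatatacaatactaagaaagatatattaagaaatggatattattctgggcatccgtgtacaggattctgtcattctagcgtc
RPT1, chrXI:173963-174262, plus strand: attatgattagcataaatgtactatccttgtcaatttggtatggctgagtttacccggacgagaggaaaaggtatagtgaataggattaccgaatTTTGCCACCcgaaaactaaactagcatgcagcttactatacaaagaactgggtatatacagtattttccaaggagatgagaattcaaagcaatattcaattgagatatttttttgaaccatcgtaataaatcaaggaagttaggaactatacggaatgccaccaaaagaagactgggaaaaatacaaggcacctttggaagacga

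The motif starts 138 bases before the start codon in RPN5, 142 bases before it in PRE1 and 155 bases before it in RPT1. Among all 71 genes whose window held the motif, 56 were called higher, 3 lower and 42 higher beyond 1.5-fold. Outside the proteasome subunits these counts were 29, 3 and 18 of 44 genes. The 18 included CDC48, the ubiquitin gene UBI4, the ubiquitin-activating enzyme UBA1, the proteasome-bound ECM29, and the chaperone cofactor SGT2. They also held genes of other compartments, such as PDI1, a protein disulfide isomerase of the endoplasmic reticulum, and PIM1, the Lon protease of mitochondria. In the assembly and accessory list 1 of 16 windows held the motif, and in the ubiquitin and Cdc48 list 3 of 28. A motif match is a description of the sequence and was not tested as a binding site.

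**Figure D1:**
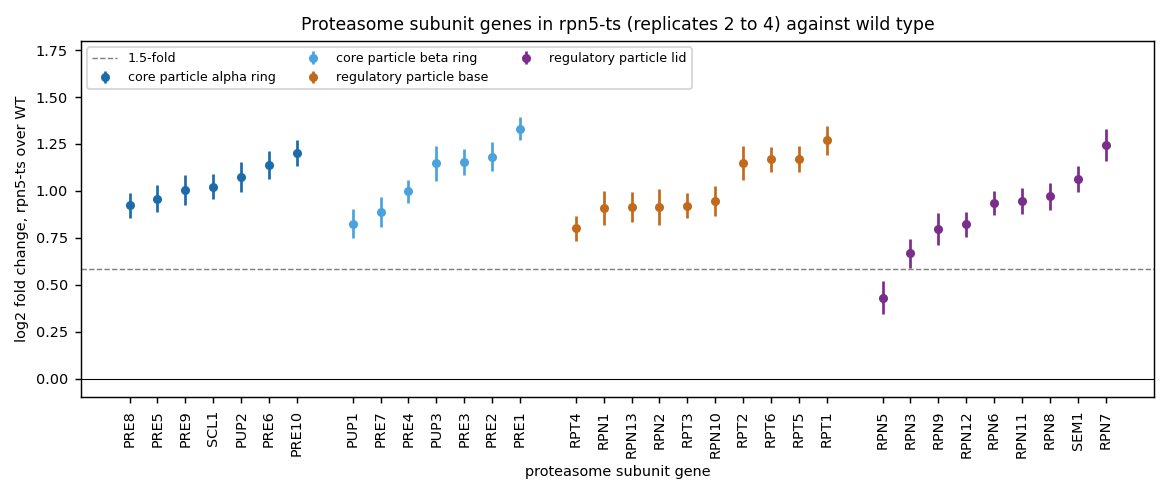
Log2 fold change of each of the 33 proteasome subunit genes in rpn5-ts replicates 2 to 4 over WT (points) with its SE (bars), by subcomplex; the dashed line marks 1.5-fold. All points lie above 0, from RPN5 at 0.43 to PRE1 at 1.33, and RPN5 alone lies below the dashed line.

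RPN5 (YDL147W, chromosome IV, 190873 to 192407) stood at 454, 383, 280 and 291 CPM in WT replicates 1 to 4 and at 520, 408 and 405 in rpn5-ts replicates 2 to 4. Its groups overlapped, since WT replicate 1 lay above rpn5-ts replicates 3 and 4. The log2 difference was 0.43 (SE 0.09, edgeR adjusted p = 0.0063), the smallest of the 33 subunit genes. The counts cover the gene as a whole and cannot tell the ts allele from the wild-type sequence. Without the form factor the difference was 0.34 with an edgeR adjusted p of 0.29.

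The core particle rose as a whole. PRE1, a beta subunit, stood at 198, 200, 180 and 178 CPM in WT and at 515, 436 and 447 in rpn5-ts, with no overlap (log2 difference 1.33, SE 0.06, edgeR adjusted p = 1.4e-05). Among alpha subunits PRE10 showed the largest difference, 1.2 (SE 0.07), and PRE8 the smallest, 0.92 (SE 0.07). PUP2, the subunit altered in the other mutant, rose in rpn5-ts from 198 ± 16.8 CPM (SD, n = 4) to 408 ± 43.0 (SD, n = 3). The medians were 1.02 over the 7 alpha ring genes and 1.15 over the 7 beta ring genes. PRE2 and PRE3, which encode active-site subunits of the beta ring, had log2 differences of 1.18 and 1.16, and PUP1, which encodes the remaining active site, 0.82.

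In the regulatory particle all 10 base genes and all 9 lid genes rose. RPT1, an ATPase of the base, stood at 363, 346, 303 and 315 CPM in WT and at 817, 763 and 772 in rpn5-ts (log2 difference 1.27, SE 0.08, edgeR adjusted p = 3.5e-05). The base scaffold genes RPN1 and RPN2 and the ubiquitin receptor gene RPN13 each showed a log2 difference of 0.91, and the receptor gene RPN10 one of 0.94. Lid genes spread more widely. RPN7 had the largest lid difference, 1.24 (SE 0.08), and SEM1 followed at 1.06 (SE 0.07). RPN11, the deubiquitinase, had 0.95 (SE 0.07), while RPN3 at 0.67 (SE 0.08), RPN9 at 0.80 (SE 0.08) and RPN5 did not pass the test against 1.5-fold. The lid genes were also the subunit genes most often lower in replicates 3 and 4 than in replicates 1 and 2, with 8 of 9 called between the forms of the name.

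Assembly and accessory factors rose less evenly, with 11 of 16 higher, 1 lower and a median log2 difference of 0.66. UMP1, a core particle assembly factor that the mature proteasome degrades, stood at 146, 141, 111 and 116 CPM in WT and at 323, 238 and 227 in rpn5-ts (log2 difference 1.09, SE 0.07, edgeR adjusted p = 3.5e-05). UBP6, a deubiquitinase bound to the base, had 1.04 (SE 0.08), and HUL5, a ligase bound to proteasomes, 1.15 (SE 0.16). The largest difference was that of ECM29, 1.8 (SE 0.25), for which 87.7 to 149 CPM in WT stood against 277, 419 and 439 in rpn5-ts. CIC1, a protein linked to proteasomes and to ribosome assembly, fell by 0.23 (SE 0.07) and lost its call with the library labelled rpn5-ts replicate 1.

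Genes that build, read and edit ubiquitin chains rose in 20 of 28 cases and fell in 1, with a median of 0.64. NPL4 and UFD1 form the cofactor of the segregase Cdc48 that extracts ubiquitinated proteins. NPL4 stood at 82.7, 71.8, 71.3 and 71.2 CPM in WT and at 201, 199 and 208 in rpn5-ts (log2 difference 1.46, SE 0.08, edgeR adjusted p = 1.9e-05). CDC48 itself had 1.26 (SE 0.10), UFD1 1.11 (SE 0.09) and SHP1, another cofactor, 1.09 (SE 0.09). The polyubiquitin gene UBI4 stood at 420, 236, 155 and 154 CPM in WT and at 919, 882 and 850 in rpn5-ts (log2 difference 2.10, SE 0.27, edgeR adjusted p = 0.0014). The conjugating enzyme genes UBC5 and UBC13 had 1.99 (SE 0.16) and 1.22 (SE 0.08). Among shuttle factors, which carry substrates to the proteasome, DDI1 had 1.92 (SE 0.15), DSK2 1.25 (SE 0.10) and RAD23 0.65 (SE 0.08).

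Of the COP9 signalosome and Rub1 list, 5 of 14 genes rose and 9 were not called, with a median of 0.20. The count was 1 without the form factor and 3 without WT replicate 4 or rpn5-ts replicate 3. The cullin CDC53, the substrate that carries Rub1, had the largest difference at 0.90 (SE 0.11), and RUB1 had 0.52 (SE 0.09).

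RPN4 RNA was not called. It stood at 394, 189, 103 and 111 CPM in WT and at 150, 96.7 and 100 in rpn5-ts, and the groups overlapped (log2 difference -0.44, SE 0.30, edgeR adjusted p = 0.27). The fit gave -0.12 in replicates 3 and 4 and -0.95 in replicates 1 and 2, where WT replicate 1 had the highest level of all 7 libraries. In the Rpn4 control list 4 of 8 genes rose and 4 were not called, and 2 rose without the form factor. Among those that rose, PDR1, a regulator that binds the RPN4 promoter, had 0.90 (SE 0.11) and YAP1 0.77 (SE 0.13). UBR2, a ligase that ubiquitinates Rpn4, had 0.82 (SE 0.11). RPN4 RNA does not measure the Rpn4 protein.

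**Figure D2:**
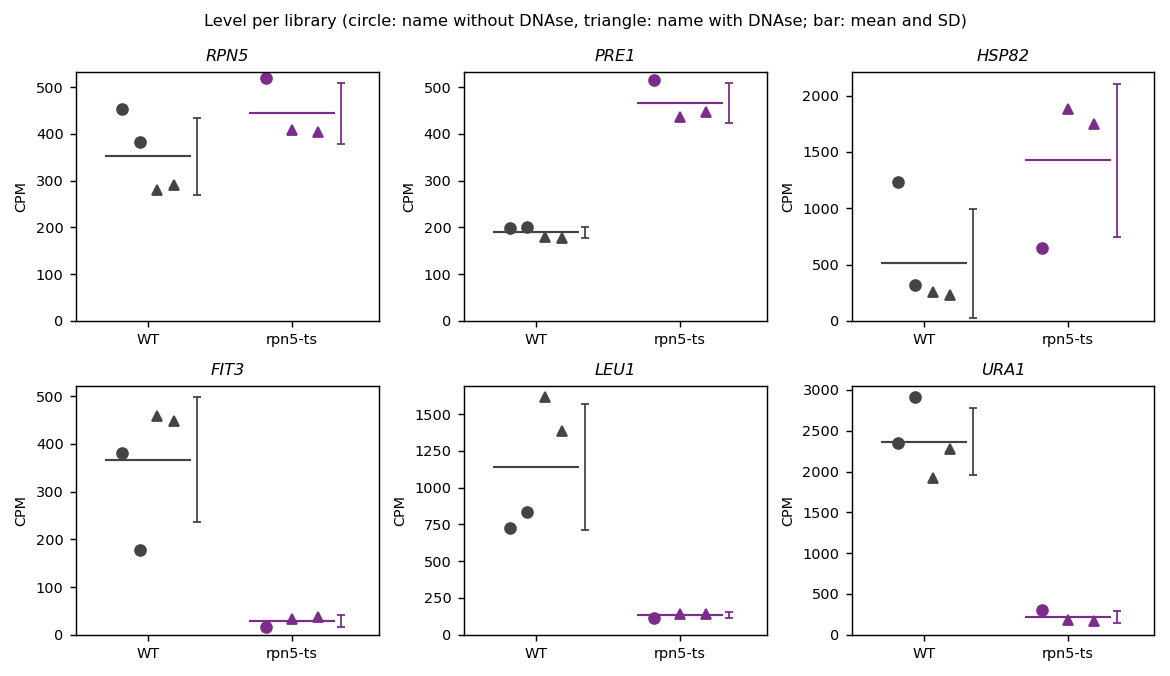
CPM of RPN5, PRE1, HSP82, FIT3, LEU1 and URA1 in each library; circles are names without DNAse and triangles names with DNAse, horizontal lines are group means and bars SDs (n = 4 and n = 3). PRE1, FIT3, LEU1 and URA1 separate the groups, and RPN5 and HSP82 do not.

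Among all gene lists, chaperone genes of the Hsf1 type differed most in their median between the forms of the name. Of 23 genes 11 rose and none fell, with a median of 0.84, but the median was 1.37 in replicates 3 and 4 and -0.15 in replicates 1 and 2. The count was 22 without WT replicate 1, 7 without WT replicate 4 and 6 without the form factor. HSP82, the inducible Hsp90, stood at 1231, 318, 258 and 233 CPM in WT and at 643, 1882 and 1753 in rpn5-ts, and was not called (log2 difference 1.85, SE 0.95, edgeR adjusted p = 0.17). SSA4, the most strongly inducible cytosolic Hsp70, stood at 671 CPM in WT replicate 1 against 49.6 to 85.2 in the other WT libraries and 138 to 212 in rpn5-ts. BTN2, a sorting factor for misfolded proteins, showed the same layout, with 625 CPM in WT replicate 1, 43.9 to 77.8 in the others and 122 to 212 in rpn5-ts. Both lay in rpn5-ts above 3 of the 4 WT libraries and below the remaining one. Members that were separated from all WT libraries included AHA1, an activator of Hsp90, with 1.40 (SE 0.14), HSC82, the constitutive Hsp90, with 1.25 (SE 0.14), and CPR6, an Hsp90 co-chaperone, with 1.59 (SE 0.20). SSA1, with 1.93 (SE 0.62, edgeR adjusted p = 0.046), lost its call under 10 alternatives, and HSP82 and HSC82 or SSA1 and SSA2 are similar in sequence and may share reads.

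Among other stress lists, general stress genes of the Msn2/4 type rose in 10 of 19 cases, with a median of 0.59 (0.64 and 0.57 in the forms with and without DNAse). The count was 16 without WT replicate 1 and 5 without the form factor. TKL2, a transketolase isoform, had 2.21 (SE 0.26), and YRO2, a membrane protein of the plasma membrane, 2.07 (SE 0.27). Trehalose and glycogen genes rose in 9 of 16 cases and fell in 1, with GLC3, the glycogen branching enzyme, at 1.25 (SE 0.19). The 9 became 5 without WT replicate 4 or rpn5-ts replicate 3 and 2 without the form factor. In the unfolded protein response list 6 of 13 rose and 1 fell, and 3 rose without the form factor. PDI1 had 1.15 (SE 0.11) and KAR2, the Hsp70 of the endoplasmic reticulum, 0.79 (SE 0.11). Autophagy genes rose in 11 of 20 cases, none beyond 1.5-fold, with ATG7 at 0.69 (SE 0.09). The count was 6 without WT replicate 3, 5 without WT replicate 4, 5 without rpn5-ts replicate 3, 7 without rpn5-ts replicate 4 and 2 without the form factor.

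Oxidative stress and drug resistance lists gave fewer calls. Of 17 Yap1-type genes 5 rose and 1 fell, a share near that of all genes, and FRM2, a nitroreductase-like protein, with 1.97 (SE 0.22) and OYE3, an NADPH oxidoreductase, with 1.70 (SE 0.18) had the largest differences. The replicate block called 6 higher and 4 lower, 3 were higher without WT replicate 4, and the call of OYE3 was lost with the library labelled rpn5-ts replicate 1. Of 11 Pdr1/Pdr3-type genes 4 rose and 1 fell, and 1 rose without WT replicate 3 or 4 or rpn5-ts replicate 3 or 4. In the DNA damage list 3 rose and 4 fell of 14, and 2 fell without rpn5-ts replicate 2. Both shares are near those of all genes (22.2% and 21.6%). The rises were MAG1, DDI1 and PHR1, and MAG1 and DDI1 are divergent neighbours. The falls included RNR1, a ribonucleotide reductase subunit, at -0.57 (SE 0.10), and HUG1, a checkpoint target, at -2.20 (SE 0.48), so the list did not move in 1 direction.

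Iron uptake genes were lower in rpn5-ts. Of 24 genes 16 fell, 8 beyond 1.5-fold, and none rose, with a median of -0.63 (-0.50 and -0.91 in the forms with and without DNAse). Without the form factor 10 fell. The replicate block called 17 lower and 3 higher, and without WT replicate 1 19 were lower and 3 higher. FIT3 (YOR383C, chromosome XV, 1060288 to 1061102), a cell wall mannoprotein that holds siderophores, stood at 381, 177, 459 and 448 CPM in WT and at 15.5, 32.4 and 38.2 in rpn5-ts. Every rpn5-ts library lay far below the lowest WT library (log2 difference -3.87, SE 0.31, edgeR adjusted p = 2.7e-04). The other mannoprotein genes FIT1 and FIT2 also fell, with -3.49 (SE 0.31) and -2.96 (SE 0.46). The siderophore transporter genes ARN1 and ARN2 had -2.13 (SE 0.33) and -2.46 (SE 0.30), the oxidase gene FET3 -1.48 (SE 0.16) and the reductase gene FRE5 -3.60 (SE 0.53). FTR1, the permease partner of Fet3, fell by 0.64 (SE 0.11) with overlapping groups, as rpn5-ts replicate 2 at 286 CPM lay above WT replicates 3 and 4.

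The FIT3 promoter is shown because the core letters bound by the iron regulator Aft1, TGCACCC, stood in 12 of the 24 iron windows and in 73 of 5560 windows overall (1.31%). Capitals mark the site, here on the other strand, whose first base lies 184 bases before the start codon.
FIT3, chrXV:1061006-1061305, minus strand: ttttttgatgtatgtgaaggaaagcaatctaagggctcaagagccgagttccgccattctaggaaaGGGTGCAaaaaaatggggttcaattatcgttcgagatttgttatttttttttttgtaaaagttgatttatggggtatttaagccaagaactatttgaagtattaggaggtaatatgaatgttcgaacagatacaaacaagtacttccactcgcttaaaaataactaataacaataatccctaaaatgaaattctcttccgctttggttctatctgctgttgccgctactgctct

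Copper and zinc genes were mixed, with 2 of 11 higher and 6 lower. The membrane progestin receptor homologues IZH1, IZH2 and IZH4 fell, with -1.68 (SE 0.08), -1.16 (SE 0.14) and -2.57 (SE 0.13). ZRT1, the high-affinity zinc transporter, rose by 0.92 (SE 0.09) with overlapping groups.

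The leucine and branched-chain list, enzymes that make leucine, isoleucine and valine, gave the lowest list median, -0.91, with 10 of 12 lower and none higher. LEU1 (YGL009C, chromosome VII, 476152 to 478727), isopropylmalate isomerase, stood at 724, 836, 1617 and 1385 CPM in WT and at 112, 144 and 144 in rpn5-ts (log2 difference -3.14, SE 0.16, edgeR adjusted p = 1.9e-05). OAC1, a mitochondrial carrier that exports isopropylmalate, had -2.92 (SE 0.10), the transaminase gene BAT1 -1.81 (SE 0.14) and the dehydratase gene ILV3 -2.04 (SE 0.18). LEU2 itself was not analysed here. The rpn5-ts strain carries LEU2 and WT does not, so the ts allele and the marker cannot be told apart for this list.

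Pyrimidine synthesis and uptake genes moved the same way, with 9 of 12 lower and none higher (median -0.43). URA1 (YKL216W, chromosome XI, 25173 to 26476), dihydroorotate dehydrogenase, stood at 2354, 2911, 1925 and 2281 CPM in WT and at 307, 178 and 175 in rpn5-ts (log2 difference -3.38, SE 0.17, edgeR adjusted p = 1.9e-05). URA4 had -1.95 (SE 0.12) and the uridine permease gene FUI1 -1.59 (SE 0.14). The rpn5-ts strain carries URA3 and WT does not, and again the ts allele and the marker cannot be told apart. The windows of LEU1 and URA1 are shown because each holds the letters bound by the pathway's own regulator. The Leu3 site, CCGG and CCGG spaced by a pair of bases, stood in 7 of 5560 windows (0.13%), among them LEU1 and BAT1, and the Ppr1 site, CGG and CCG spaced by 6 bases, in 74 (1.33%), among them URA1 and URA4. Both motifs read the same on either strand, and capitals mark them.
LEU1, chrVII:478603-478902, minus strand: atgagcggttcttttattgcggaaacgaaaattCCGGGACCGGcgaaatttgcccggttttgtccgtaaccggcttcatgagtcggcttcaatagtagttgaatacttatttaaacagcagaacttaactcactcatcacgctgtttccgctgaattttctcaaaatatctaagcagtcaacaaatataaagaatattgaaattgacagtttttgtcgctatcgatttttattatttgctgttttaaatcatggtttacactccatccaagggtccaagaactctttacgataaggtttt
URA1, chrXI:24965-25264, plus strand: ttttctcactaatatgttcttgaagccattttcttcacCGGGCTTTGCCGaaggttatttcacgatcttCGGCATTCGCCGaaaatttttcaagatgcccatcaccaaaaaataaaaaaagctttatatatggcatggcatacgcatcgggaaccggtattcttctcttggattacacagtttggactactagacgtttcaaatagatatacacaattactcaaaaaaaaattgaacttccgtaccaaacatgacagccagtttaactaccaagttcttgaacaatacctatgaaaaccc

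Other amino acid lists moved less. Histidine genes fell in 5 of 6 cases, led by HIS1 at -1.14 (SE 0.14). Lysine genes without LYS2 fell in 5 of 8 and rose in 1, with LYS4 at -0.72 (SE 0.08). With the library labelled rpn5-ts replicate 1 these counts were 2 of 6 and 1 of 8, and HIS1 and LYS4 were not called. Without WT replicate 4 or rpn5-ts replicate 3, 3 histidine genes fell. HIS3 and LYS2 also differ between the strains. In the arginine list the lowest of 10 edgeR adjusted p-values was 0.089, for ARG2, the only member with an unadjusted p under 0.05, and ARG1 had 58.2 to 162 CPM in WT against 51 to 264 in rpn5-ts. Purine genes fell in 6 of 13 and sulfur amino acid genes in 5 of 21, with MET6, methionine synthase, at -1.25 (SE 0.13). The sulfur share is near that of all genes. Without rpn5-ts replicate 2 these counts were 3 and 1, without the form factor 1 and 0, and the sulfur count was 3 with the replicate block and without WT replicate 2, WT replicate 3 or rpn5-ts replicate 3. In the vitamin B6 and thiamine list 4 of 9 genes rose and 5 were not called. The vitamin B6 genes SNO1 and SNZ1, a neighbouring pair, rose by 3.04 (SE 0.28) and by 1.97 (SE 0.18). The near-identical SNZ2 and SNZ3 rose by 1.21 (SE 0.11) and by 1.66 (SE 0.14). SNO1 was low in WT, at 0.99 to 3.04 CPM.

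Genes of daughter cell separation fell. DSE2 (YHR143W, chromosome VIII, 385242 to 386727), a daughter-specific wall protein, stood at 983, 1077, 806 and 1013 CPM in WT and at 328, 291 and 313 in rpn5-ts (log2 difference -1.61, SE 0.11, edgeR adjusted p = 5.9e-05). CTS1, the chitinase that cuts the septum, stood at 1474, 2002, 2129 and 2257 CPM in WT and at 629, 670 and 703 in rpn5-ts, a fall of 1.59 (SE 0.14) on the log2 scale. DSE1 (YER124C, chromosome V, 407001 to 409103) had -1.51 (SE 0.08), the glucanase gene SCW11 -1.07 (SE 0.08) and AMN1, an inhibitor of mitotic exit, -1.10 (SE 0.10). These 5 genes had no overlap between groups and were the ones beyond 1.5-fold in a list of 21 M/G1 genes, of which 13 fell and 3 rose (median -0.52; -0.45 and -0.42 in the forms with and without DNAse). SIC1, an inhibitor of S-phase kinase and a substrate of SCF ubiquitin ligase, and PIR1, a wall protein, were among those that rose, by 0.46 (SE 0.08) and by 0.71 (SE 0.15), and the call of SIC1 was lost with the library labelled rpn5-ts replicate 1.

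Other cell cycle lists gave calls in both directions. In the G1/S list 2 of 18 rose and 6 fell (11 without rpn5-ts replicate 2, 3 without WT replicate 4, 2 without rpn5-ts replicate 3 or 4), with the cyclin CLN1 at -0.78 (SE 0.18) and RFA1, a subunit of replication protein A, at 0.94 (SE 0.11). In the G2/M list 4 of 14 rose and 2 fell, with CHS2, a septum chitin synthase, at 0.50 (SE 0.07) and the cyclin CLB1 at -0.63 (SE 0.10). The G2/M share that rose is near that of all genes (22.2%), and the call of CHS2 was lost with the library labelled rpn5-ts replicate 1. Of 10 histone genes 2 fell, a share near that of all genes (21.6%). The count was 9 with the replicate number as a block or without WT replicate 1, 7 without rpn5-ts replicate 2 and 1 without WT replicate 2. It was 0 without WT replicate 3 or 4 or rpn5-ts replicate 3 or 4. The histone median was -0.65 in replicates 3 and 4 and -0.03 in replicates 1 and 2.

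Mating genes of a-cells fell in 5 of 7 cases. MFA1, an a-factor precursor gene, stood at 99.9, 123, 96.8 and 77.7 CPM in WT and at 26.9, 31.8 and 28.9 in rpn5-ts (log2 difference -1.73, SE 0.15, edgeR adjusted p = 1.7e-04), and MFA2 fell by 1.16 (SE 0.09). STE2 fell by 1.02 (SE 0.15). The sum over the 7 a-cell genes was 1200 to 1720 CPM in WT and 767 to 774 in rpn5-ts. In bulk RNA fewer cells of a type and less RNA per cell cannot be told apart. The rpn5-ts strain also carries a second MFA1 promoter at CAN1, whose part in the result was not tested. The pheromone response list fell in 15 of 24 cases and rose in 3, with SST2, a regulator of the receptor's G protein, at -1.12 (SE 0.10), the G protein subunit GPA1 at -0.91 (SE 0.09) and PRM4 at -1.45 (SE 0.13). Of 4 alpha-cell genes 3 were called higher at low levels, and STE3 alone with the library labelled rpn5-ts replicate 1. STE3, the a-factor receptor of alpha cells, stood at 4.95 to 10.2 CPM in WT and 13.7 to 18 in rpn5-ts, and MF(ALPHA)1 reached at most 1.35 CPM in WT and 2.73 in rpn5-ts. In the meiosis list 1 of 11 rose and 3 fell (0 fell without rpn5-ts replicate 2 or 3), and the rise was HOP1, a chromosome axis protein, at 1.38 (SE 0.15). The meiosis share that fell is near that of all genes (21.6%).

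**Figure D3:**
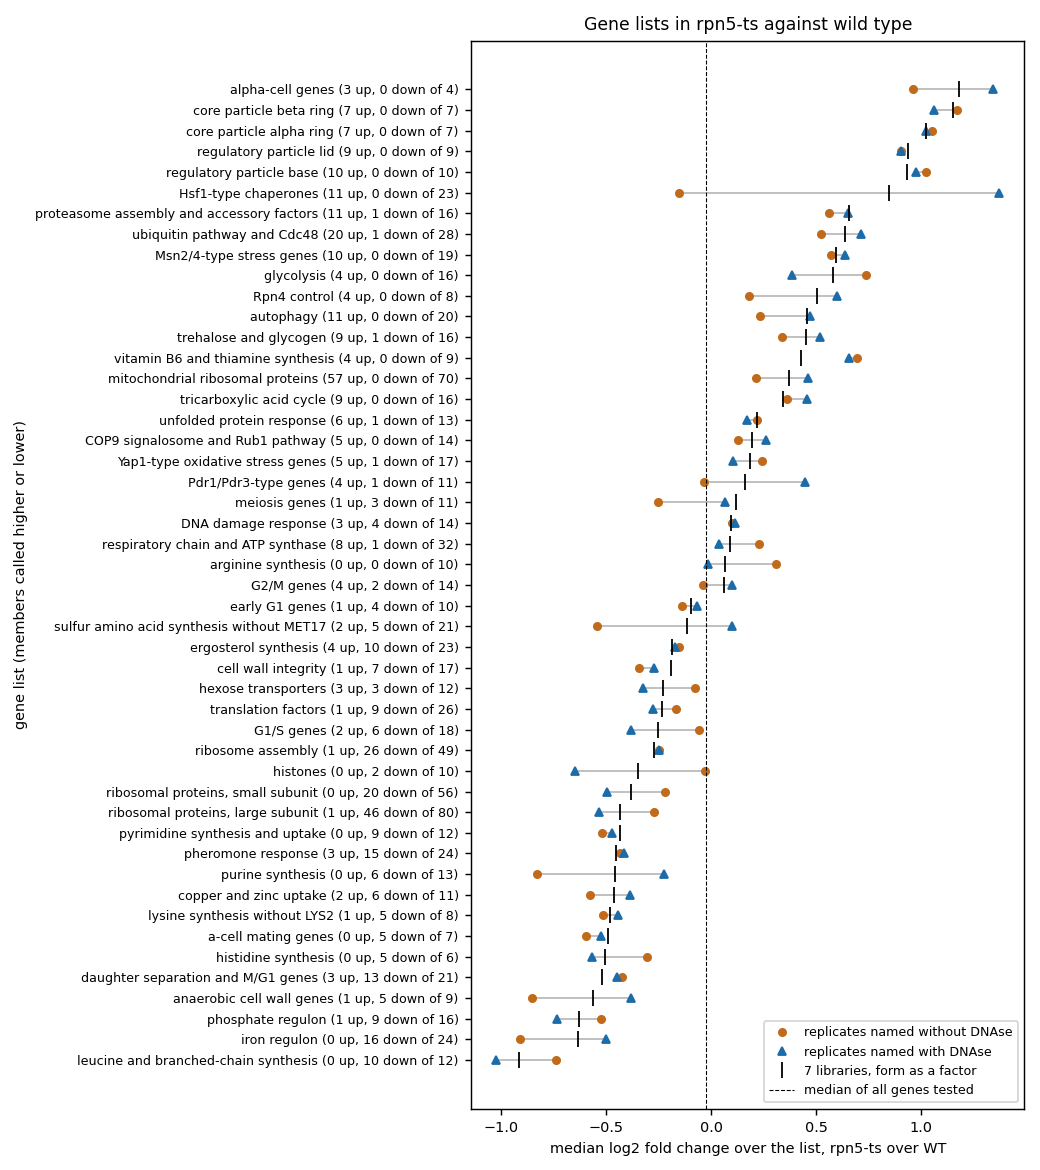
Median log2 fold change of rpn5-ts over WT in each gene list, within replicates named without DNAse (circles, a single rpn5-ts library), within replicates named with DNAse (triangles) and in the fit of 7 libraries (ticks); the dashed line is the median of all genes, -0.02. Proteasome lists lie near 1 in both forms, and Hsf1-type chaperones lie at 1.37 in the DNAse form and -0.15 in the other.

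Protein synthesis genes shifted by small amounts. Of 136 cytosolic ribosomal protein genes 66 fell and 1 rose, none beyond 1.5-fold, with a median of -0.41 (-0.52 and -0.24 in the forms with and without DNAse). This count rested on the libraries, since 8 fell with the library labelled rpn5-ts replicate 1, 6 without the form factor and 130 with the replicate block. It was also 130 without WT replicate 1, 34 without WT replicate 2, 12 and 8 without WT replicates 3 and 4, and 7 without rpn5-ts replicate 3 or 4. Many of these genes are near-identical pairs that may share reads. RPL35B had -0.65 (SE 0.08) and RPS29A -0.57 (SE 0.11). Ribosome assembly genes fell in 26 of 49 cases, with RRP1 at -0.55 (SE 0.07). The count was 10 without WT replicate 4, 13, 10 and 12 without rpn5-ts replicates 2, 3 and 4, and 0 without the form factor. Mitochondrial ribosomal proteins went the other way, with 57 of 70 higher and none lower (median 0.37), and MRPL50 stood at 0.84 (SE 0.06) and MRPL7 at 0.71 (SE 0.08). Here the count was 37 without WT replicate 4, 36 without rpn5-ts replicate 3 and 20 without the form factor.

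Central metabolism lists varied in their share of calls. Of 16 tricarboxylic acid cycle genes 9 rose, among them MDH1, mitochondrial malate dehydrogenase, at 0.80 (SE 0.08). In 2 of the 16 rpn5-ts lay above all WT libraries, a share near that of all genes (16.5%). The count of rises was 5 without WT replicate 4 and 1 without the form factor. Of 32 respiratory chain and ATP synthase genes 8 rose (5 without WT replicate 4, rpn5-ts replicate 2 or rpn5-ts replicate 3) and 1 fell. The share that rose is near that of all genes (22.2%). CYC7, an isoform of cytochrome c, had the largest difference at 2.01 (SE 0.34). Glycolysis genes were called in 4 of 16 cases, all higher, a share again near that of all genes. Among them were TDH1 at 1.86 (SE 0.21) and ENO1 at 1.07 (SE 0.26). None of the 16 glycolysis genes separated the groups, while 15 of them differed between the forms of the name. The replicate block called 9 higher and 4 lower, and 9 were higher without WT replicate 1 and 2 without WT replicate 4 or rpn5-ts replicate 2. ENO1 was at 134 and 270 CPM in WT replicates 1 and 2 against 1527 and 1190 in replicates 3 and 4. Phosphate genes fell in 9 of 16 cases, with the transporter PHO84 at -1.54 (SE 0.16) and the acid phosphatase PHO5 at -1.43 (SE 0.22). Ergosterol genes fell in 10 of 23 and rose in 4, with ERG4 at -0.96 (SE 0.10), and 5 and 6 fell without rpn5-ts replicates 2 and 3. In the cell wall integrity list 7 of 17 fell, among them the sensor MID2 at -0.90 (SE 0.07) and the kinase SLT2 at -0.71 (SE 0.06).

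The largest changes, 12 up and 12 down, were drawn from genes with at least 10 CPM in a group and no overlap between groups. The rises began from low levels. CDA1 (YLR307W, chromosome XII, 745622 to 746527), a chitin deacetylase of spores, stood at 2.63, 2.73, 1.60 and 1.23 CPM in WT and at 27.8, 14.4 and 14.0 in rpn5-ts (log2 difference 3.37, SE 0.14, edgeR adjusted p = 6.6e-06). SDH9, a minor isoform of the succinate dehydrogenase flavoprotein, had 3.06 (SE 0.15), and SPS19, a peroxisomal dienoyl-CoA reductase, 2.97 (SE 0.11). MAG1 (YER142C, chromosome V, 455059 to 456098), a DNA glycosylase, stood at 25.8, 17.7, 11.5 and 14.0 CPM in WT and at 120, 106 and 102 in rpn5-ts. CLD1, a cardiolipin phospholipase, ECM8, BNA2, which starts NAD synthesis from tryptophan, MCH2 and the open reading frames YPL113C and YHR138C completed the rises with SNO1 and TKL2, between 2.11 and 2.6 apart from SNO1. BNA2 shares 241 bases with YJR079W on the same strand and its level is uncertain by that much.

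The falls included abundant genes. YMR317W, an open reading frame of unknown function, stood at 105, 54.8, 63.9 and 58.6 CPM in WT and at 4.31, 4.22 and 3.73 in rpn5-ts (log2 difference -4.04, SE 0.27, edgeR adjusted p = 9.9e-05). DAN1, a cell wall protein of anaerobic growth, fell by 3.97 (SE 0.28). PLB2, a phospholipase B, stood at 132, 192, 216 and 170 CPM in WT and at 16.3, 20 and 21.5 in rpn5-ts, a fall of 3.25 (SE 0.16) on the log2 scale. MDH2, cytosolic malate dehydrogenase, stood at 479, 504, 430 and 458 CPM in WT and at 77, 70.1 and 69.8 in rpn5-ts, a fall of 2.67 with the smallest SE of the 24 genes (0.07). The remaining falls were those of FIT1, FIT2, FIT3, FRE5, URA1, LEU1, OAC1 and IZH4 given above.

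**Figure D4:**
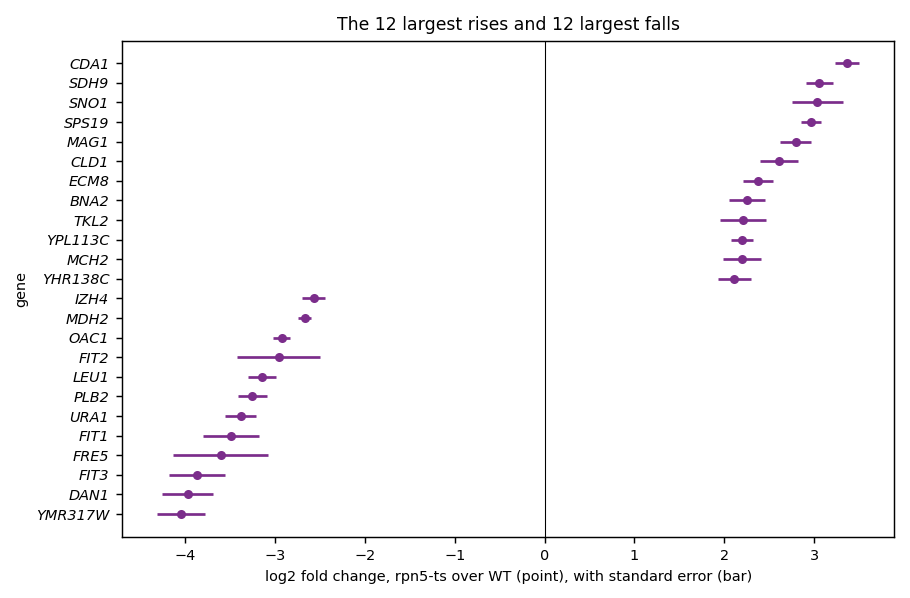
Log2 fold change of rpn5-ts over WT with SE for the 12 largest rises and 12 largest falls. The rises run from YHR138C at 2.11 to CDA1 at 3.37 and the falls from IZH4 at -2.57 to YMR317W at -4.04.

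To see where rpn5-ts differed from another proteasome mutant, it was compared with the 4 pup2-ts libraries in a fit of 11 libraries that includes the same WT libraries. Of 5561 genes 627 (11.3%) were called, 347 (6.24%) higher and 280 (5.04%) lower in rpn5-ts. MET17 held 5248 to 16857 counts in pup2-ts and at most 2 in rpn5-ts. Counts of MET17 and LYS2 chose the rpn5-ts libraries, so those of rpn5-ts are a description with no test. Other markers were at like levels in both mutants. In pup2-ts URA3 stood at 94.1 to 122 CPM, CAN1 at 9.79 to 15.2 CPM and LYS2 at no more than 6 counts. The count was 371 with the replicate block, 46 without the form factor, 32 with the library labelled rpn5-ts replicate 1 and 1302 without WT replicate 1. It was 300 without rpn5-ts replicate 2, 172 without replicate 3 and 285 without replicate 4, and 374, 265 and 333 without pup2-ts replicates 2, 3 and 4.

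Lid genes were lower in rpn5-ts than in pup2-ts, with 7 of 9 called and none higher. RPN5 had the largest of these differences, -0.69 (SE 0.09, edgeR adjusted p = 0.0012), with 652 to 822 CPM in pup2-ts. The other 6 lay between -0.24 for RPN6 and -0.35 for RPN12. Of the 24 other subunit genes 3 were called lower, PRE1, PRE3 and RPT3, and PUP2 was called higher. Medians against pup2-ts lay below 0 in every subcomplex, so a lower level was not particular to the lid. They were -0.307 in the lid, -0.183 in the alpha ring, -0.196 in the beta ring and -0.185 in the base. The lid count was 2 with the block, 0 without the form factor and 0 with the library labelled rpn5-ts replicate 1, and RPN5 itself was not called under the last pair of settings (edgeR adjusted p = 0.14 and 0.057). Leaving out rpn5-ts replicate 2 left 3 lid genes, and leaving out rpn5-ts replicate 3 or 4 or pup2-ts replicate 2, 3 or 4 left 2. SPG5, a proteasome regulator of stationary phase, was higher in rpn5-ts than in pup2-ts by 0.90 (SE 0.07), a call lost without the form factor (edgeR adjusted p = 0.17) and with the library labelled rpn5-ts replicate 1 (0.087).

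The daughter separation genes that fell most against WT were also lower than in pup2-ts. DSE1 stood at 441, 394, 326 and 307 CPM in pup2-ts and at 177, 137 and 141 in rpn5-ts (log2 difference -1.22, SE 0.07, edgeR adjusted p = 7.6e-06). CTS1 ranged from 1601 to 1791 CPM in pup2-ts against at most 703 in rpn5-ts (-1.39, SE 0.13), and DSE2 and SCW11 differed by -1.10 (SE 0.11) and -0.93 (SE 0.08). In the M/G1 list 8 of 21 were lower and 2 higher, and 6 and 2 with the replicate block. With the library labelled rpn5-ts replicate 1 only SCW11 was lower. In the G2/M list 9 of 14 genes were higher in rpn5-ts than in pup2-ts and none lower, among them CHS2 by 0.62 (SE 0.07) and CLB1 by 0.91 (SE 0.25). That count was 6 with relative log expression factors, 3 without rpn5-ts replicate 3 and 0 with the library labelled rpn5-ts replicate 1.

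Respiratory genes were higher in rpn5-ts than in pup2-ts in 17 of 32 cases and tricarboxylic acid cycle genes in 9 of 16, with none lower in either list, and SDH1 differed by 0.77 (SE 0.11). With the replicate block these counts were 12 and 5, and with the library labelled rpn5-ts replicate 1 they were 2 and 0. Arginine genes were lower than in pup2-ts in 7 of 10 cases, with ARG4 at -1.15 (SE 0.17), and histidine genes in 4 of 6, with HIS4 at -1.04 (SE 0.14), and none was called in either list with the library labelled rpn5-ts replicate 1. Leaving out rpn5-ts replicate 3 left 10 respiratory, 2 tricarboxylic acid cycle, 4 arginine and 1 histidine gene called, and leaving out pup2-ts replicate 3 left 11, 2, 4 and 3. Ribosome assembly genes were lower in 14 of 49 cases, a count that was 34 by DESeq2, 27 without WT replicate 1, 3 with the block, and 0 without the form factor, with the library labelled rpn5-ts replicate 1, and without rpn5-ts replicate 2, rpn5-ts replicate 3 or pup2-ts replicate 3. Among the 24 largest changes against WT, CDA1 (1.94, SE 0.14), SPS19 (1.69, SE 0.15), ECM8 (1.44, SE 0.16), CLD1 (1.06, SE 0.24), SDH9 (0.82, SE 0.22) and BNA2 (0.76, SE 0.19) were higher than in pup2-ts. PLB2 (-1.97, SE 0.15) and FIT3 (-1.01, SE 0.23) were lower. With the library labelled rpn5-ts replicate 1, CDA1, SPS19, ECM8 and PLB2 were not called (edgeR adjusted p = 0.13, 0.12, 0.078 and 0.23). Calls of CLD1, SDH9, BNA2 and FIT3 under that setting, where 32 genes were called in all, are not given here. That library held 11.7, 4.16, 14.9 and 36.1 CPM of them. The pup2-ts libraries held 11.3 to 15.4, 5.4 to 14.3, 17.1 to 38.0 and 32 to 65 CPM. The other 16 of the 24 were not called between the mutants, which does not show that they were equal.

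**Figure D5:**
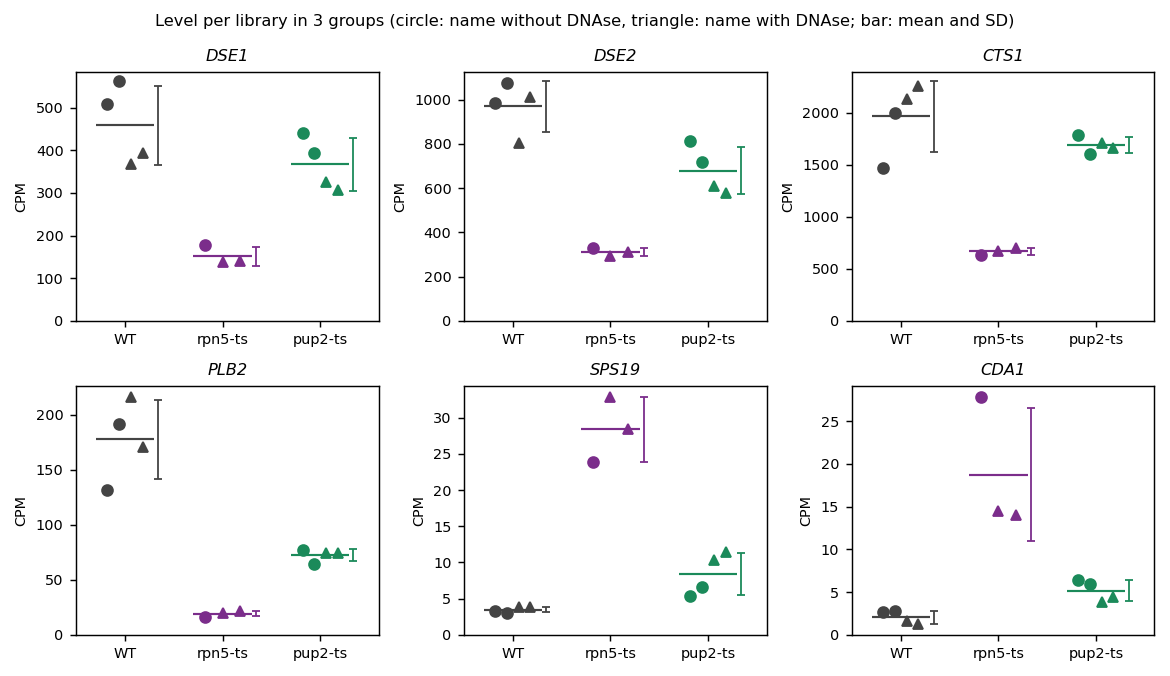
CPM of DSE1, DSE2, CTS1, PLB2, SPS19 and CDA1 in each WT, rpn5-ts and pup2-ts library; circles are names without DNAse and triangles names with DNAse, lines are group means and bars SDs (n = 4, 3 and 4). The 3 rpn5-ts libraries lie apart from the other groups in every panel, with DSE1 at 137 to 177 CPM against 307 to 441 in pup2-ts.

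The effect of rpn5-ts was compared between the forms of the name by their interaction. It was called for 13 of 5560 genes (0.234%), where replicates 1 and 2 hold a single rpn5-ts library. ARO10 and ARO9, enzymes of aromatic amino acid breakdown, differed from WT by 2.28 and 1.49 in the DNAse form and by -1.53 and -1.12 in the other. ARO10 stood at 16.5 CPM in rpn5-ts replicate 2 and at 111 and 114 in replicates 3 and 4, against 21.3 to 58.2 in WT. The glucose transporter HXT1, whose call against WT was lost with the replicate block, stood at 14.4 CPM in rpn5-ts replicate 2, 145 and 162 in replicates 3 and 4, and 161 to 425 in WT. DESeq2 called 121 genes. The count was 0 without WT replicate 3 or 4 or without rpn5-ts replicate 3 or 4 (337 to 417 at an unadjusted p under 0.05 in edgeR), 349 without WT replicate 1 and 1733 without WT replicate 2.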

How the data were processed

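Polyadenylated RNA, isolated by hot acid phenol and treated with DNAse, was sequenced from KAPA HyperPrep libraries per the labels. The authors deposited raw counts per feature. The submitters' processing notes name sacCer3, STAR 2.5.2b, and featureCounts of Subread 1.5.1. How reads with several places were handled, and whether counting used strand, is not given in the sources used here. Genes with near-identical copies, and genes that overlap on either strand, are uncertain to that degree. Analysis was limited to 5585 of 12768 features, those whose locus tag is among the 6021 protein-coding genes of R64. They held 85.7% to 87.4% of the counts, and 385 overlap another on the same strand.

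The main tool was edgeR 4.0.16 (R 4.3.3; TMM, filterByExpr, group and form of the name, robust quasi-likelihood test, two-sided, Benjamini-Hochberg, 4 residual degrees of freedom). A test against 1.5-fold used glmTreat. Each SE was obtained by dividing the size of the log2 fold change by the root of its F statistic. The interaction of group and form, and rpn5-ts against pup2-ts in 11 libraries, were tested likewise. CPM of pup2-ts libraries come from the 11-library scaling. The procedure was tested on simulated counts. The text names RPN5, PUP2, RPN4, strain markers, the 12 genes that rose most and the 12 that fell most among those that passed the test with 10 CPM in a group and no overlap, and list members, mainly those with the lowest adjusted p. Further list members and the genes with an interaction were chosen after their values were seen. The members and lists were chosen with earlier results of these data known. Promoter windows come from the R64 reference of RefSeq.

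Deviations from the group means correlated at 0.764, 0.656 and 0.632 between same-numbered WT and rpn5-ts libraries 2, 3 and 4, and those of the other number of the same form at 0.451 to 0.647. With the form removed, the same-number correlations were 0.121, -0.523 and -0.433. Each number belongs to a single form, so an effect of the form cannot be told from one of the numbers. Pairing by number can be fitted, but the main fit holds the form and no such term. With the replicate number as a block, run as an alternative, 2959 genes were called and 438 passed beyond 1.5-fold. Block counts are given for some lists only. No replicates were copies by a chi-square test of counts. Alternatives were other scalings, DESeq2 1.42.0, limma-voom (limma 3.58.1), other filters, no form factor, the replicate block, other sets of libraries, all features and each library left out. Figures used Python 3.11.15 and matplotlib 3.10.9. The value of 1 list member is not reported here.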

Additional observations from a re-analysis of the deposited data

Results flagged for a closer look

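A pair of genes gave signal in a library left out of the main comparisons: the library labelled rpn5-ts replicate 1 held 6869 counts of LYS2 and 8056 of MET17, against at most 4 and 2 in rpn5-ts replicates 2 to 4.

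The effect of rpn5-ts differed between the forms of the name, by the test of that difference, for 13 genes. As the log2 effect in the DNAse form minus that in the other form, the difference was 3.8 for ARO10, 2.6 for ARO9, 2.41 for TIP1, 2.19 for HXT1, 2.03 for HXT3 and 1.86 for MUP3. It was -1.12 for ALD5, -1.13 for NCW2, -1.19 for SVS1, -1.28 for MNN1, -1.37 for PRY2, -1.45 for PCL1 and -1.54 for SCW10. The edgeR adjusted p was 0.027 for 11 of them, 0.043 for SCW10 and 0.046 for ALD5. A single rpn5-ts library represents the form without DNAse.

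A WT library stood apart from the other 3 for 20 of 232 named genes, where chance flags about 1 in 20. WT replicate 1 was high in HSP82 (1231 CPM against 233 to 318), SSA4 (671 against 49.6 to 85.2), BTN2 (625 against 43.9 to 77.8), CPR6 (337 against 203 to 217), ECM29 (149 against 87.7 to 96.9), DDI1 (70.1 against 47.5 to 50.3), NPL4 (82.7 against 71.2 to 71.8), UBC5 (22.7 against 15.5 to 16.6), CDC53 (190 against 142 to 148), RPT2 (313 against 265 to 268), ARN2 (437 against 202 to 229), FRE5 (46.2 against 10.4 to 13.5) and SNO1 (3.04 against 0.99 to 1.28). It was low in ADE13 (666 against 1069 to 1106), TRX2 (135 against 207 to 216) and SNZ2 (6.24 against 6.88 to 6.98). WT replicate 2 was high in RPL37B (1050 against 848 to 877), RPS20 (4634 against 3448 to 3608) and RPS29A (628 against 494 to 504). WT replicate 3 was low in SCL1 (202 against 214 to 216).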

How the results depend on the processing

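Of 227 named genes called, 130 stayed on the same side of the threshold under every alternative run, and none of the 227 changed sign. Effects within replicates 1 and 2 come from the fit of 7 libraries with the interaction, and those replicates were not fitted alone. Most losses came without the form factor (79 genes) and within replicates 1 and 2 by that fit (45). With the library labelled rpn5-ts replicate 1, 20 were lost, and the replicate block lost 2 (HXT1 and SSA1). Of 50 gene lists, 38 moved their count of calls by over 1.5 times without the form factor and 23 within replicates 1 and 2. Without WT replicate 4, 18 moved, and 18 without rpn5-ts replicate 3. With the library labelled rpn5-ts replicate 1, 11 moved, with the replicate block 7, and 0 to 10 under each other alternative. With each library left out, 1548 to 3262 genes were called against WT. They numbered 765 without the form factor, 1247 within replicates 1 and 2 and 4321 over all annotated features. Genes beyond 1.5-fold numbered 132, 191 and 776 under these settings, 195 with the library labelled rpn5-ts replicate 1, 619 for replicates 3 and 4 alone, and 198 to 481 with each library left out. Against pup2-ts the count was 994 by DESeq2, 46 without the form factor, 371 with the replicate block, 32 with the library labelled rpn5-ts replicate 1, and 172 to 1302 with each library left out. The interaction was called for 121 genes by DESeq2 and for 0 to 1733 with each library left out, and it could not be fitted without rpn5-ts replicate 2. Signs of uncalled genes turned for ARG4 (0.33 with the library labelled rpn5-ts replicate 1 and 0.30 in replicates 1 and 2), BTN2 (-0.13 without the form factor and -1.53 in replicates 1 and 2), SSA4 (-0.28 and -1.45 likewise) and HSP82 (-0.27 in replicates 1 and 2). The causes were not tested. With 3 rpn5-ts libraries, 1 of them in its form, small changes rest on few degrees of freedom, and genes under about 1 CPM rest on few reads.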
